A study of Mus musculus with 14 samples.

Results

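The chemokine ligand genes are the rows of the count table whose symbol begins with Ccl, Cxcl, Cx3cl or Xcl followed by a digit, pseudogenes included. They number 43 of 46095 gene symbols, and 26 of them had enough reads to be tested among 17693 genes. They were measured by RNA-seq of the superior mesenteric artery (SMA), the vessel that feeds most of the small intestine, in 14 C57BL/6 mice aged 8 weeks. Under normal conditions there were 3 WT mice, labelled Drp1 +/+, and 4 mice labelled Drp1 flox/+. Ischemia treatment was given to another 3 Drp1 +/+ and 4 Drp1 flox/+ mice. Drp1, encoded by Dnm1l, is the GTPase that pinches mitochondria apart, and the Drp1 flox/+ mice are called Drp1 KO here, as in the study. They keep an intact Drp1 allele in every cell. The study's methods describe a CRISPR/Cas9 frameshift allele, no Cre is named, and the labels do not say whether a floxed allele was recombined. The methods describe ischemia as the withdrawal of blood through the femoral artery, set out for rats and applied likewise to Drp1 KO mice. The names of the ischemic libraries carry 2 h, whereas the study's text gives a longer period for these groups. Each p-value below measures the spread between these mice.

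Chemokines are small secreted proteins that bind heparan sulfate on vessel walls and steer leukocytes through G protein-coupled receptors. The spacing of their first cysteines names the families: CXC, CC, CX3C and XC. CXC ligands with a Glu-Leu-Arg (ELR) motif, such as Cxcl1 and Cxcl2, act on Cxcr2 and draw neutrophils to inflamed venules, and their genes belong to the classic early targets of NF-kB. Cxcl9, Cxcl10 and Cxcl11 are induced by interferons and draw T cells through Cxcr3, the Ccl2 group draws monocytes, and Cxcl12 is made constitutively by stromal cells and signals through Cxcr4.

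In the SMA, 2 of the 26 tested ligand genes rose with ischemia, averaged over both genotypes: Cxcl1 and Cxcl2. They went from at most 5.37 CPM (the count relative to the TMM-scaled total of the library) in any normal mouse to at least 42.5 CPM for Cxcl1, and from at most 1.5 to at least 12 CPM for Cxcl2. Cxcl2 entered the test only through the ischemic mice, since it was below the filter in normal mice alone. The other 24 tested ligand genes did not pass the limits, which were a false discovery rate (FDR) under 0.05 and a fold change over 1.5. Of all genes tested, 0.927% passed in this comparison, 0.616% being higher. No ligand gene passed in any comparison of Drp1 KO with WT mice, where none of the 17693 genes did with edgeR (0%).

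Total counts ran from 25612646 to 40255851 per mouse. The floor was set at 3 counts, taken as the upper bound for a gene with 0 counts, which equal 0.0745 to 0.117 CPM. Single counts lie below it, and it covers counting error only. Dnm1l was at 63.8, 65.6 and 90.9 CPM in normal WT mice against 54.8, 60.8, 57.8 and 62.2 CPM in normal KO mice, and at 81.0, 63.0 and 80.9 against 72.6, 68.9, 75.9 and 60.0 CPM after ischemia. Its difference did not pass in either condition (FDR 0.974 and 0.872, edgeR). Smooth muscle markers summed to 6968 to 35640 CPM over the mice, and those of endothelium to between 614.5 and 1565 CPM, while those of brown adipocytes ranged from 146.9 to 6256 CPM. In bulk tissue, fewer cells of a type and less RNA per cell cannot be told apart. Normal WT mouse 3 was sequenced on lane 1 and the other 13 mice on lane 8, so lane and mouse are confounded there. Normal KO mouse 4 and ischemic WT mouse 2 stood apart in several ligand genes, as given below. In normal KO mouse 4, T cell markers summed to 16.3 CPM, against at most 4.48 CPM in any other mouse.

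Cxcl1, a main neutrophil attractant of the mouse, lies on the plus strand of chromosome 5 at chr5:90891241-90893115 (GRCm38, GENCODE M21). It was at 0.265, 0 and 2.15 CPM in normal WT mice and at 0.0282, 0.954, 0.994 and 5.37 CPM in normal KO mice. After ischemia it was at 42.5, 156 and 57.6 CPM in WT mice and at 58.2, 76.0, 56.2 and 103 CPM in KO mice. Each of the 7 ischemic mice was thus above each of the 7 normal mice, with ischemic WT mouse 2 the highest. Group means ± SD were 0.805 ± 1.17 (n = 3) and 1.83 ± 2.40 (n = 4) under normal conditions, and 85.4 ± 61.6 (n = 3) and 73.4 ± 21.9 (n = 4) after ischemia. The log2 fold change averaged over both genotypes was 6.04 ± 0.90 (SE, 95% interval 4.10 to 7.99, FDR 0.0103, edgeR), rank 21 of all genes by p. Without normal WT mouse 3, which had 57 counts beside 9 and 0 in the others of its group, the value was 7.27 (FDR 0.0133).

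Cxcl2, a close relative that also acts on Cxcr2, lies 12.6 kb further along at chr5:90903871-90905938 on the same strand. Its counts under normal conditions were 0, 0 and 5 in WT mice and 0, 7, 0 and 49 in KO mice. They were 730, 1271 and 643 in ischemic WT mice and 404, 604, 606 and 1483 in ischemic KO mice. As CPM, the ischemic mice ran from 12 to 45.1, and again none overlapped with the normal mice. The log2 fold change averaged over both genotypes was 7.32 ± 0.99 (SE, 95% interval 5.18 to 9.45, FDR 0.00525, edgeR), rank 14 of all genes. The fold is uncertain because it is set against 5 counts in 1 normal WT mouse and 7 and 49 in normal KO mice 2 and 4. The log2 fold change of Cxcl2 was 8.65 without normal KO mouse 4 (FDR 0.000427) and 9.35 without normal WT mouse 3 (FDR 0.0196). Non-overlapping higher groups were found for these 2 of 26 ligand genes and for 0.576% of all genes tested.

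Within WT mice alone, Cxcl1 had a log2 fold change of 6.75 (SE 1.39, FDR 0.283, edgeR) and Cxcl2 of 8.82 (SE 1.61, FDR 0.283). Without normal WT mouse 3 these fitted values were 9.21 and 12.9, the latter against counts of 0 and 0, so the size of either fold in WT mice rests on that mouse. Within KO mice alone, the values were 5.33 (SE 1.11, FDR 0.0724) and 5.82 (SE 1.13, FDR 0.0525). With edgeR 0 of 26 ligand genes passed in either genotype, beside 0.0113% of all genes in WT and 0.294% in KO mice. At an unadjusted p under 0.05 there were 5 ligand genes in WT and 3 in KO mice, against 9.57% and 13.2% of all genes. The ischemic mice lay wholly above the normal mice in WT for Cxcl1, Cxcl2, Cx3cl1, Ccl3 and Ccl27a (6.63% of all genes) and in KO for Cxcl1, Cxcl2 and Cx3cl1 (5.49%). DESeq2 called both Cxcl1 and Cxcl2 in each genotype, with FDR 0.00145 for each in WT mice, and 0.00175 and 0.00895 in KO mice. Over all genes, DESeq2 called 108 in WT and 606 in KO mice, beside 2 and 52 with edgeR. No difference in response between genotypes was detectable. The interaction was −1.42 for Cxcl1 (95% interval −4.65 to 1.80, FDR 0.951) and −3.00 for Cxcl2 (−7.01 to 1.01, FDR 0.946). Single mice moved these values: without normal KO mouse 4 they were 0.02 and −0.35, and without normal WT mouse 3 they were −3.87 and −7.06.

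**Figure D1:**
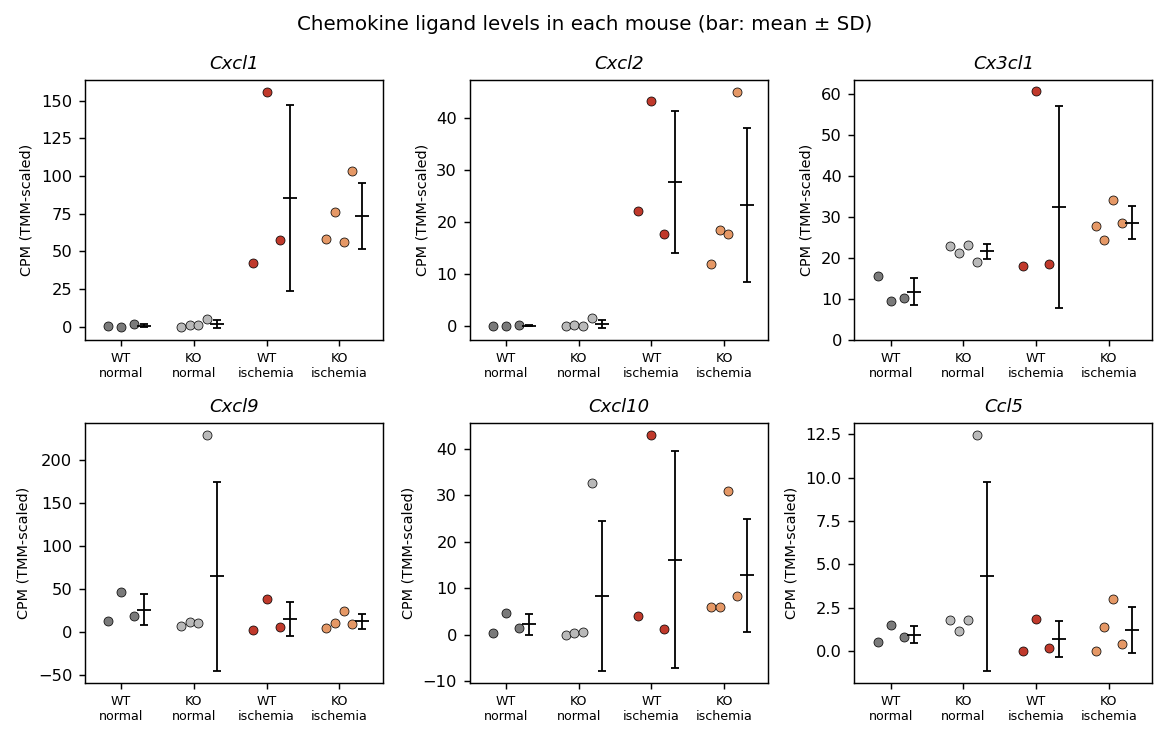
Level of 6 chemokine ligand genes in each mouse (points, CPM) with the group mean ± SD (bar, 3 WT or 4 KO mice a group). Cxcl1 and Cxcl2 separate the 7 ischemic from the 7 normal mice, Cx3cl1 separates them within each genotype, and Cxcl9, Cxcl10 and Ccl5 are led by single mice such as normal KO mouse 4.

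The promoters of Cxcl1 and Cxcl2 are shown because these are the ligand genes that rose, and that of Cxcl3 because it lies in the same cluster, holds the same letters and had no counts. The promoter of Cxcl15, which lies nearer and also had no counts, holds no match to the NF-kB consensus searched here. Each line holds the 250 bases before the transcription start on the plus strand, from RefSeq (GRCm38.p6), at chr5:90890995-90891244 for Cxcl1, chr5:90903649-90903898 for Cxcl2 and chr5:90785851-90786100 for Cxcl3. Capitals mark a run of 11 bases that reads as a kB decamer, the consensus bound by NF-kB, on each strand, so that the matches overlap.
Cxcl1: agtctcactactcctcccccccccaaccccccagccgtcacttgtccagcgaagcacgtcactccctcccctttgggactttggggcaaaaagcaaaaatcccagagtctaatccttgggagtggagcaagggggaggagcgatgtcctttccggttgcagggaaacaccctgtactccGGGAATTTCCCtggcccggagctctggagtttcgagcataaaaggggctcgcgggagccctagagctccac
Cxcl2: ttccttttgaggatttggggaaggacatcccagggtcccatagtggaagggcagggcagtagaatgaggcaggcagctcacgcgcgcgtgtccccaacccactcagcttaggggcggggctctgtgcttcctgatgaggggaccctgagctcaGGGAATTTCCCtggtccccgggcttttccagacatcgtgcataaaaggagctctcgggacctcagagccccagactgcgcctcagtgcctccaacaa
Cxcl3: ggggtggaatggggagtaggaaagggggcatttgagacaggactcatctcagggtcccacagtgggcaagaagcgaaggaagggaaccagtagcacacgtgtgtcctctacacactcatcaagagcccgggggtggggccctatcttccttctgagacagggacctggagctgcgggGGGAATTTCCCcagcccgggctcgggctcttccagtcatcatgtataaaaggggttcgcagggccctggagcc
The run GGGAATTTCCC is the same in all 3 promoters and begins 71, 97 and 73 bases before the RefSeq start of Cxcl1, Cxcl2 and Cxcl3. RefSeq and GENCODE starts differ, so these distances depend on the annotation. The printed lines of Cxcl1 and Cxcl2 end past the GENCODE gene starts (chr5:90891241 and chr5:90903871). Of the 43 ligand genes, 27 have a RefSeq promoter window (250 bases before to 50 after the start), with 33 windows in all. A kB decamer on either strand stood in 8 of the 33 windows, each of another gene, against 8.46% of all 32851 windows. The AP-1 pattern TGANTCA, searched in the same way, stood in 7 of the 33 windows, of 6 genes, against 7.81% of all windows. Cxcl3 and Ccl20 hold the kB decamer and had no count in any mouse, and Ccl1, which was not tested, holds it too. The tested genes Cxcl10, Ccl9 and, in 1 of its windows, Ccl27a also hold it and did not pass for ischemia. The windows of Cx3cl1 and Cxcl12 do not hold these letters. A match of letters describes a window and was not tested for binding.

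Cxcl1 and Cxcl2 sit in a cluster with Cxcl15, Cxcl3 and Cxcl5, whose starts lie −96.7, −105.1 and −131.9 kb from that of Cxcl1. Cxcl3, Cxcl5 and Cxcl15, which also carry the ELR motif, had 0 counts in all 14 mice. At these depths that allows a level of up to 0.117 CPM in a mouse, if the unnamed counting step could count reads of these genes. Among the smooth muscle markers, Tagln was at only 0.674 to 5.78 CPM where Acta2 was at 3355 to 18590 CPM. Whether counting losses account for either was not tested. The ELR genes of this cluster thus divided into 2 that were counted, at 18153 and 5802 reads over all mice, and 3 that were not. Pf4 and Ppbp, platelet chemokines of the same chromosome region whose symbols follow another pattern, were at most at 0.182 CPM and were not tested. Neutrophil markers, among them S100a8 and S100a9, summed to 0.767 to 7.14 CPM under normal conditions and to 1.18 to 19.1 CPM after ischemia, and 0 of the 4 tested passed. Their part in the rise of Cxcl1 and Cxcl2 was not tested.

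**Figure D2:**
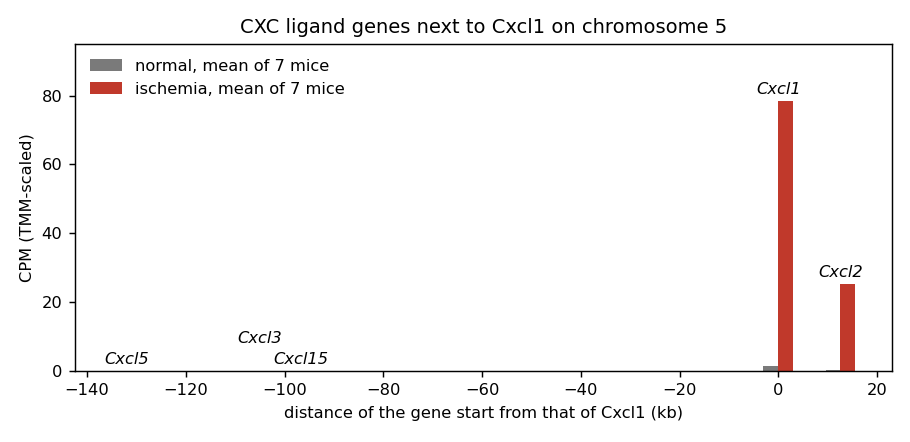
Mean level (CPM, 7 normal and 7 ischemic mice) of the 5 CXC ligand genes of the Cxcl1 cluster, placed by the distance of each gene start from that of Cxcl1 in kb. Cxcl1 and Cxcl2 carry the signal after ischemia, and Cxcl3, Cxcl5 and Cxcl15 are at 0.

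Of the CXC genes without an ELR motif, the Cxcr3 ligands were led by single mice. Cxcl9 was at 12.7, 46.4 and 17.9 CPM in normal WT mice and at 6.65, 12, 9.89 and 229 CPM in normal KO mice. Ischemic mice were at 2.22, 38.0 and 5.47 CPM in WT and at 4.75, 10.4, 24.8 and 9.09 CPM in KO mice. The groups overlapped, and 1 mouse, normal KO mouse 4, was far above all others. The ischemia difference of Cxcl9 was −1.57 on the log2 scale (SE 0.86, FDR 0.347), and −0.20 without that mouse.

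Cxcl10 ran likewise, at 0.413, 4.72 and 1.40 CPM in normal WT and 0, 0.253, 0.497 and 32.7 CPM in normal KO mice. Levels after ischemia were 4.07, 43.1 and 1.27 CPM in WT and 5.88, 5.87, 31.0 and 8.33 CPM in KO mice. The highest mice were ischemic WT mouse 2, normal KO mouse 4 and ischemic KO mouse 3, so that the groups overlapped (log2 difference 1.75, SE 1.20, FDR 0.451). Without normal KO mouse 4 the difference of Cxcl10 was 4.25, and without ischemic WT mouse 2 it was 0.46. Cxcl11, which GENCODE M21 annotates as a polymorphic pseudogene, had 34 counts in all, 16 of them in normal KO mouse 4, and was not tested.

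The receptor and inducer of these ligands were high in the same mouse. Cxcr3 and Ifng, named after their values were seen, were at 6.5 and 8.55 CPM in normal KO mouse 4 and at most at 1.48 and 0.226 CPM in any other. Ccl5, a product of T cells and platelets, was at 12.5 CPM in that mouse against 1.15 to 1.81 CPM in the other normal KO mice. In the remaining groups Ccl5 was at 0.531, 1.49 and 0.792 CPM in normal WT, at 0.0304, 1.87 and 0.166 CPM in ischemic WT and at 0, 1.41, 2.98 and 0.425 CPM in ischemic KO mice. Its groups overlapped, with a log2 difference for ischemia of −1.14 (SE 0.96, FDR 0.540), which was −0.42 without normal KO mouse 4 and −2.50 without ischemic WT mouse 2. Xcl1, a ligand made by activated T and NK cells, had 270 counts, 261 of them in normal KO mouse 4, 8 and 1 in normal WT mice 2 and 3 and none after ischemia. Ccl22, a ligand of Ccr4 made by dendritic cells, had 116 of its 176 counts in the same mouse, and neither gene was tested.

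**Figure D3:**
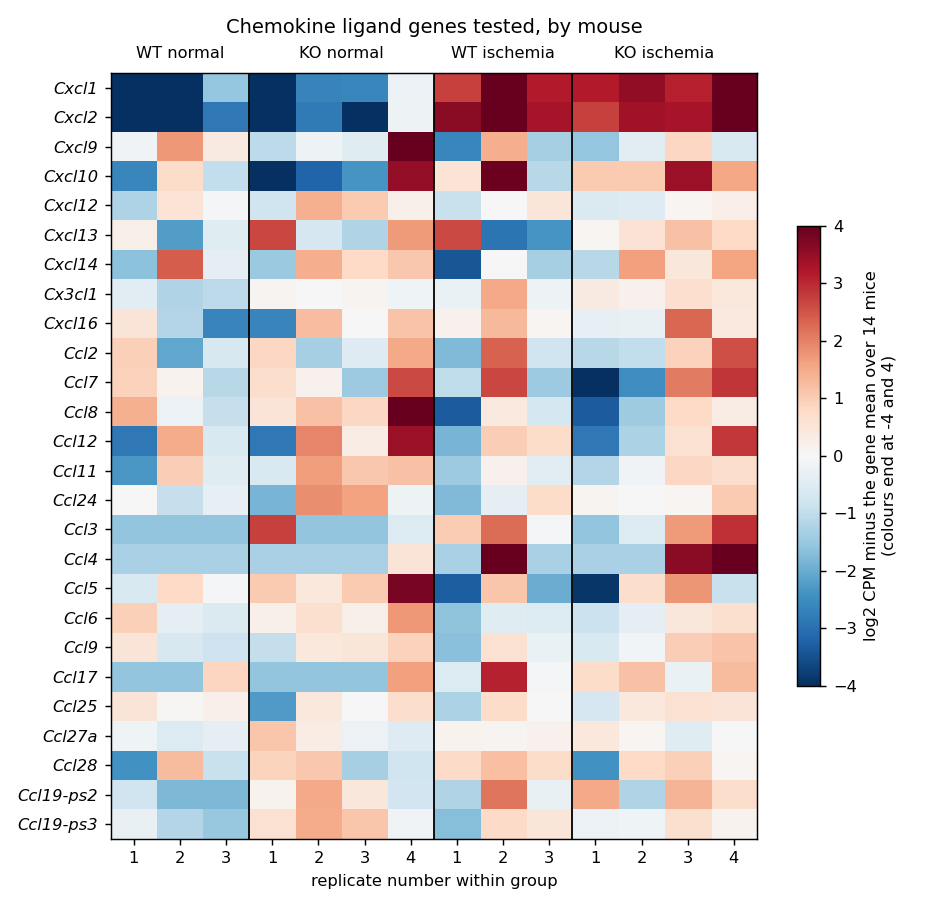
Level of the 26 tested ligand genes in each of the 14 mice, as log2 CPM minus the mean of the gene over all mice (blue below, red above, colours ending at −4 and 4). The rows of Cxcl1 and Cxcl2 change colour between normal and ischemic mice, and the column of normal KO mouse 4 is red for Cxcl9, Cxcl10, Ccl8, Ccl12 and Ccl5.

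Among the membrane-anchored ligands, Cx3cl1 (fractalkine), which is made by endothelium and tethers cells that carry Cx3cr1, had the next smallest p in the ischemia comparison. It was at 15.4, 9.33 and 10.3 CPM in normal WT and 22.9, 21.2, 23.1 and 19.0 CPM in normal KO mice. In ischemic mice it was at 18, 60.9 and 18.4 CPM in WT and 27.6, 24.4, 34.0 and 28.4 CPM in KO mice. The ischemic mice were above the normal mice within each genotype, but 2 of the ischemic WT mice were below the normal KO mice. The log2 difference averaged over both genotypes was 0.94 (SE 0.26, 95% interval 0.39 to 1.49). It did not pass with edgeR (FDR 0.104), which called 164 genes, and passed with DESeq2 (FDR 0.0196), which called 870. It was 1.47 in WT mice (SE 0.39, FDR 0.496), falling to 0.62 without ischemic WT mouse 2, and 0.41 in KO mice (SE 0.33, FDR 0.651). The interaction was −1.06 (95% interval −2.16 to 0.04, FDR 0.946).

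Cxcl16, the other anchored ligand and a scavenger receptor of macrophages, was low, at 0 to 0.472 CPM in normal WT, 0 to 0.814 CPM in normal KO, 0.331 to 0.850 CPM in ischemic WT and 0.238 to 1.78 CPM in ischemic KO mice. Its groups overlapped (log2 difference 0.94, SE 0.93, FDR 0.610). Cxcl16 overlaps Zmynd15 on the genome.

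Per length, Cxcl12 was at 19.2 CPM per kb of exon in normal WT and 33.1 in normal KO mice as group means, beside Ccl6 at 20.4 and 32.3. After ischemia Cxcl1 was the highest, at 45.5 and 39.2 CPM per kb in WT and KO mice, against 19.9 and 18.5 for Cxcl12 and 10.3 and 19.1 for Ccl6. The order of Cxcl12 and Ccl6 thus changed between groups, within a spread over mice larger than their gap under normal conditions. Cxcl12 took 26.1% to 70.3% of all ligand counts of a mouse. Levels of Cxcl12 were 70.9, 244 and 157 CPM in normal WT, 96.7, 451, 343 and 193 CPM in normal KO, 90.2, 166 and 232 CPM in ischemic WT and 112, 117, 176 and 202 CPM in ischemic KO mice. The groups overlapped, and the log2 difference for ischemia was −0.39 (SE 0.36, 95% interval −1.16 to 0.37, FDR 0.574).

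Cxcl14, a ligand of stroma and fat, ran from 0.885 to 15.7 CPM in normal and from 0.213 to 9.15 CPM in ischemic mice (log2 difference −0.99, SE 0.71, FDR 0.472). The difference of Cxcl14 was 0.022 without normal WT mouse 2, which was at 15.7 CPM and also had the highest sum of brown adipocyte markers. Whether that tissue accounts for it was not tested. Cxcl13, which draws B cells, was at most at 2.82 CPM in normal and 2.73 CPM in ischemic mice, with a log2 difference of 0.53 (SE 1.01, FDR 0.806) that became −2.29 without ischemic WT mouse 1. Cxcl17 had 23 counts and was not tested.

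The monocyte attractants Ccl2, Ccl7, Ccl8 and Ccl12 lie close together on chromosome 11, and Ccl2 and Ccl7 were high in the same ischemic mice. Ccl2, the main ligand of Ccr2, was at 4.78, 0.532 and 1.55 CPM in normal WT and 4.31, 0.926, 1.69 and 7.08 CPM in normal KO mice. After ischemia it was at 0.669, 12.8 and 1.38 CPM in WT and 1.10, 1.20, 4.68 and 14.8 CPM in KO mice. The groups overlapped (log2 difference 0.87, SE 0.80, FDR 0.580), and without ischemic WT mouse 2 the difference was −0.26. Ccl7, which shares Ccr2, was at 9.72 CPM in ischemic WT mouse 2, at 6.40 and 11.1 CPM in ischemic KO mice 3 and 4, and at 0 to 0.699 CPM in the other 4 ischemic mice. In normal mice Ccl7 ran from 0.497 to 9.35 CPM, and its log2 difference of 0.72 (SE 1.05, FDR 0.740) became −0.57 without ischemic WT mouse 2. Ccl2 overlaps Gm17268 on the genome, so its count may be shared.

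Ccl8, another monocyte attractant, was at 2.39, 0.710 and 0.415 CPM in normal WT and 1.24, 1.96, 1.56 and 21.1 CPM in normal KO mice. After ischemia it was at 0.0304, 1.12 and 0.497 CPM in WT and 0.0297, 0.276, 1.52 and 1.06 CPM in KO mice. The groups overlapped, with normal KO mouse 4 the highest (log2 difference −2.13, SE 0.92, FDR 0.249, and −1.11 without that mouse). Ccl12, also a ligand of Ccr2, was at most at 4.78 CPM and had a log2 difference of −0.35 (SE 1.22, FDR 0.900).

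Ccl6 and Ccl9 are CC ligands of the mouse that myeloid cells make without stimulation. Ccl6 was at 62.9, 24.9 and 21.8 CPM in normal WT and 36.9, 50.4, 37.7 and 107 CPM in normal KO mice. Ischemic mice were at 10.5, 23.1 and 22.1 CPM in WT and 17.7, 25.4, 44.0 and 50.05 CPM in KO mice. The groups overlapped, and the log2 difference of −0.87 (SE 0.35, 95% interval −1.62 to −0.11) did not pass (FDR 0.224). Macrophage markers summed to 76.1 to 275.5 CPM in normal and 30.3 to 143 CPM in ischemic mice, with 0 of 5 passing and a median log2 difference of −0.87. Their part in the values of Ccl6 was not tested, and Ccl6 overlaps E230016K23Rik. Ccl9 ran from 11.7 to 42.8 CPM in normal and from 7.08 to 50.6 CPM in ischemic mice (log2 difference 0.09, SE 0.40, FDR 0.922).

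**Figure D4:**
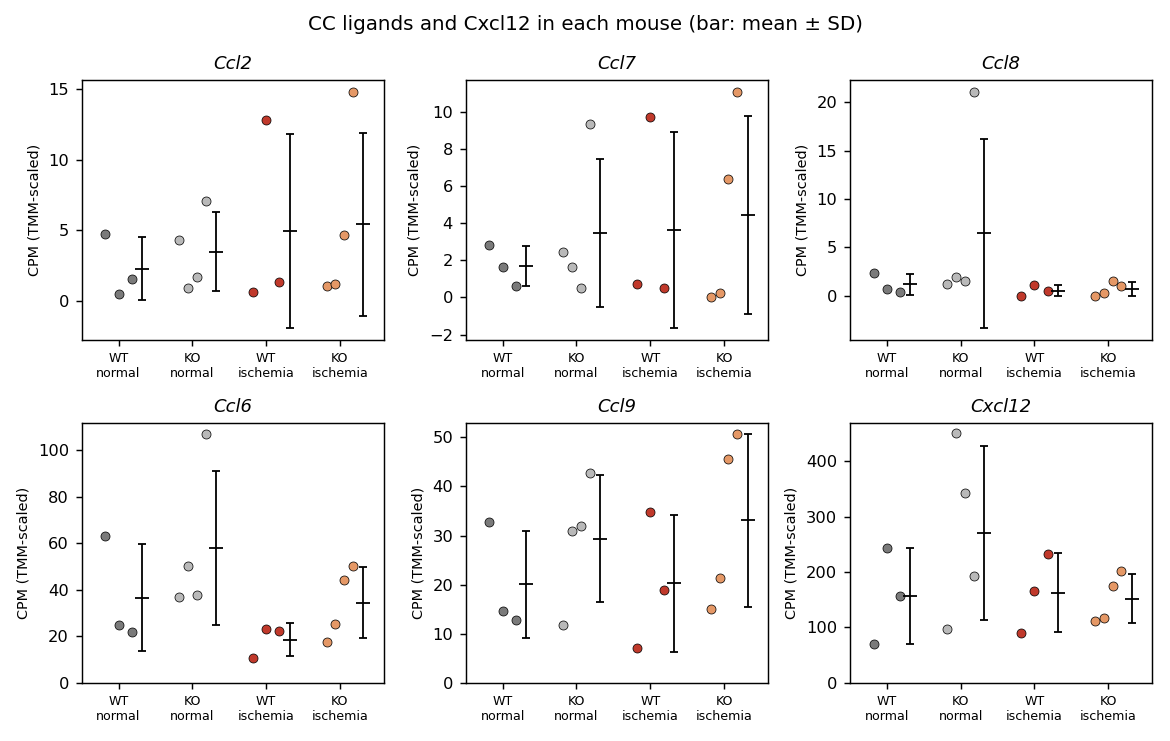
Level of 5 CC ligand genes and Cxcl12 in each mouse (points, CPM) with the group mean ± SD (bar, 3 WT or 4 KO mice a group). Normal and ischemic mice overlap in all 6 genes, and Ccl2 and Ccl7 are high in ischemic WT mouse 2 and ischemic KO mouse 4.

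Ccl3 and Ccl4, ligands that activated macrophages make, were detected in few mice and entered the test only through the ischemic ones. Ccl3 had 0 counts in each normal WT mouse and 40, 0, 0 and 2 in normal KO mice, against 10, 23 and 4 in ischemic WT and 0, 2, 18 and 42 in ischemic KO mice. Ccl4 had 0 counts in each normal WT mouse and 0, 0, 0 and 5 in normal KO mice, against 0, 72 and 0 in ischemic WT and 0, 0, 60 and 133 in ischemic KO mice. The groups overlapped for both genes over the 7 normal and 7 ischemic mice, and 4 of the 7 ischemic mice had no Ccl4. FDR was 0.272 for Ccl3 and 0.170 for Ccl4. No fold is given, since a fitted fold against groups at 0 depends on the prior count.

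The eosinophil attractants Ccl11 (eotaxin) and Ccl24 act on Ccr3. Ccl11 was at 1.98, 20.1 and 7.25 CPM in normal WT and 6.68, 32.2, 21.7 and 23.1 CPM in normal KO mice. It was at 3.68, 11.4 and 7.54 CPM in ischemic WT and 4.51, 9.18, 17.9 and 16.5 CPM in ischemic KO mice, with overlap of all groups (log2 difference −0.59, SE 0.49, FDR 0.541). Ccl24 was at most at 6.74 CPM (log2 difference −0.18, SE 0.55, FDR 0.886), and Ccl26 had no count.

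Of the ligands known from epithelia, Ccl27a, Ccl25 and Ccl28 were tested. Ccl27a was the steadiest of these, at 4.44 to 14.2 CPM over all mice (log2 difference 0.11, SE 0.25, 95% interval −0.42 to 0.65, FDR 0.831), but it overlaps Il11ra1 and has a near-identical copy in Ccl27b, which had 43 counts. Ccl25 was at 0.197 to 1.97 CPM and overlaps Elavl1 (log2 difference 0.01, SE 0.48, FDR 0.997). Ccl28 was at 0 to 0.710 CPM (log2 difference 0.48, SE 0.94, FDR 0.812). Ccl17, a Ccr4 ligand, was at 0 to 0.491 CPM in normal and 0.0608 to 1.43 CPM in ischemic mice (log2 difference 1.82, SE 1.30, FDR 0.471), and was below the filter in normal mice alone. The difference of Ccl17 was 0.53 without ischemic WT mouse 2 and 4.35 without normal KO mouse 4.

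The lymphoid homing genes Ccl19, Ccl21a, Ccl21b and Ccl21c, which guide cells that carry Ccr7, had 4, 1, 8 and 3 counts over 14 mice and were not tested. The gene copies Ccl19-ps2 and Ccl19-ps3 passed the filter. Ccl19-ps3 is annotated as a pseudogene with an antisense gene, Gm13299, across it, and was at 0.943 to 2.30 CPM in normal WT, 2.54 to 8.08 CPM in normal KO, 0.821 to 4.83 CPM in ischemic WT and 2.38 to 4.44 CPM in ischemic KO mice. Reads of near-identical copies or of the opposite strand may be split among these rows, so their source is uncertain. For ischemia the log2 difference was 0.18 (SE 0.39, FDR 0.836) for Ccl19-ps3 and 2.07 (SE 0.98, FDR 0.282) for Ccl19-ps2, which was at most at 0.850 CPM.

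Over the whole family, 17 ligand genes were below the filter and not tested: 5 without a count (Ccl20, Ccl26, Cxcl3, Cxcl5 and Cxcl15) and 12 with some. Of these, Ccl1, Ccl16-ps, Ccl19-ps1 and Ccl27b had 7, 17, 5 and 43 counts over all mice. At an unadjusted p under 0.05 in the ischemia comparison averaged over genotypes there were 7 ligand genes, against 18.1% of all genes. Of the 26 tested, 17 had a difference above 0, with a median of 0.33 on the log2 scale, beside a median of −0.05 over all genes, of which 45.8% were above 0. Since 5 of the 26 passed the filter in ischemic mice alone, these figures describe the tested rows and not the family.

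**Figure D5:**
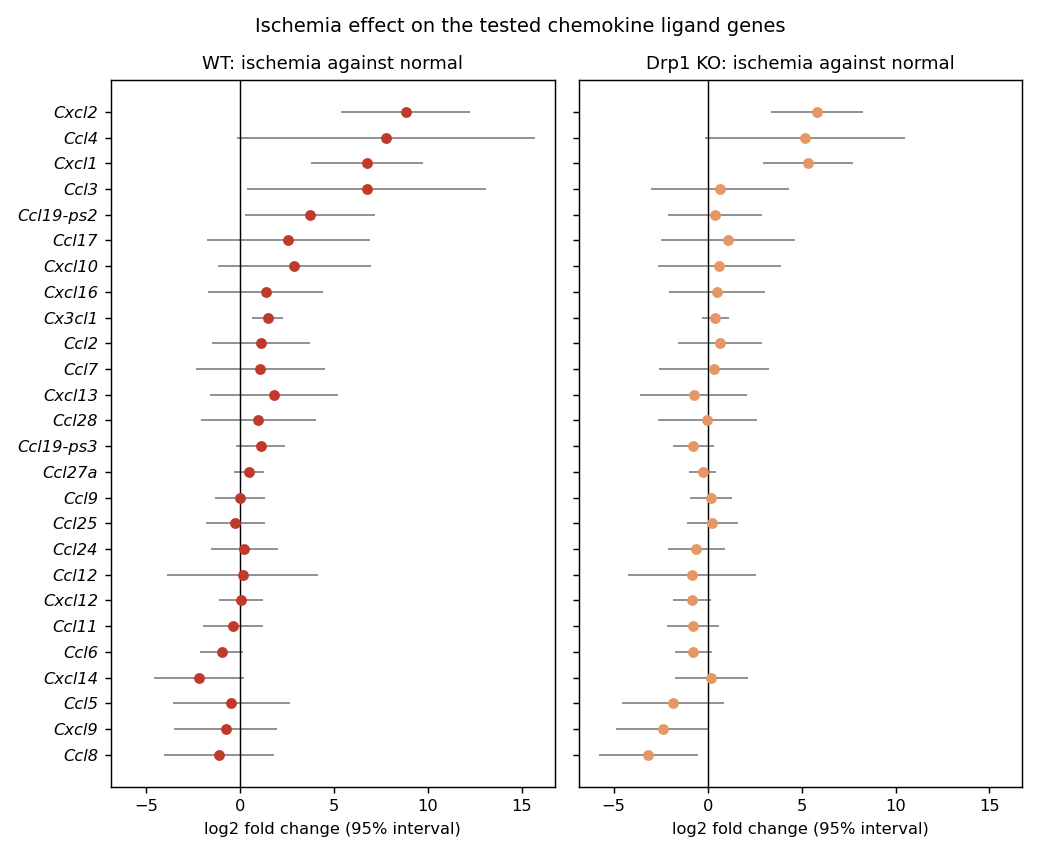
Log2 difference of ischemic against normal mice with its 95% interval for the 26 tested ligand genes, in WT (left, 3 against 3 mice) and Drp1 KO mice (right, 4 against 4), on a shared axis. Cxcl1 and Cxcl2 lie furthest from 0 relative to their intervals in both genotypes, while the interval of Ccl4 is wide.

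The comparison of Drp1 KO with WT mice asked whether the ligands in the artery wall differ with the labelled Drp1 genotype. It uses the same mice as the ischemia comparisons, so the results are not independent. Under normal conditions 0 of 26 ligand genes passed, as did 0% of all genes tested. At an unadjusted p under 0.05 there were 4, namely Ccl19-ps3, Cx3cl1, Ccl3 and Ccl19-ps2, all higher in KO mice, against 5.25% of all genes and 3.21% higher. Ccl3 and Ccl19-ps2 entered the test only through the ischemic mice. Ccl3 had 0 counts in each normal WT mouse and 40, 0, 0 and 2 in normal KO mice. Fitted with the normal mice alone, 21 ligand genes were tested and 2 had an unadjusted p under 0.05 (edgeR). Cx3cl1 was at 11.7 ± 3.30 CPM in WT (SD, n = 3) and 21.6 ± 1.90 CPM in KO mice (n = 4), with no overlap and a log2 difference of 0.88 (SE 0.37, 95% interval 0.09 to 1.67, FDR 0.933). KO mice lay wholly above WT mice for Cx3cl1, Ccl19-ps2 and Ccl19-ps3, beside 2.59% of all genes. For Ccl19-ps2 this rests on library scaling. Normal WT mouse 1 and normal KO mouse 4 each had 2 counts (0.0590 and 0.0613 CPM), below the floor. Ccl19-ps3 had the smallest FDR of the family, at 0.866 (log2 difference 1.82, SE 0.59). Of the 26 genes, 24 were above 0 (median 1.23), against 47.6% of all genes (median −0.02). Without normal KO mouse 4 the count was 19 and the median 0.50, beside a median of −0.05 over all genes. The sum of erythroid markers, genes of red blood cells, was 106.6 to 250.8 CPM in normal WT and 345.5 to 591.8 CPM in normal KO mice, and its part in these values was not tested.

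After ischemia, KO and WT mice overlapped in all 26 tested ligand genes, while 10.7% of all genes did not overlap. The count past the limits was 0 (0% of all genes), and it was also 0 at an unadjusted p under 0.05 (6.48% of all genes). The log2 difference was −0.22 for Cxcl1 (95% interval −2.33 to 1.89, FDR 0.963), −0.25 for Cxcl2 (−2.30 to 1.80, FDR 0.955) and −0.18 for Cx3cl1 (−0.95 to 0.59, FDR 0.907). Without ischemic WT mouse 2 all 3 turned sign, to 0.60, 0.27 and 0.70. In that fit 23 of 27 tested ligand genes were above 0 (median 1.15, beside 0.03 over all genes), with 3 at an unadjusted p under 0.05. The shares of all genes were not computed for that fit, and no gene passed the limits in it. In the main fit Cxcl14 had the smallest p, at a log2 difference of 2.07 (SE 1.07, FDR 0.715). Brown adipocyte markers summed to 258.4 to 1373 CPM in ischemic WT and 986.2 to 4805 CPM in ischemic KO mice. Their median log2 difference was 2.57, with 0 of 5 passing, and their part in the value of Cxcl14 was not tested. Averaged over both conditions, 0 of 26 passed (0% of all genes), with Ccl19-ps3 and Ccl6 at an unadjusted p under 0.05 (7.77% of all genes), at FDR 0.641 and 0.642. The interaction likewise gave 0 of 26 (0% of all genes), with 1 at an unadjusted p under 0.05, Ccl19-ps3 (4.32% of all genes, FDR 0.946).

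The genes that act with the ligands were read from the same ischemia comparison. Their lists were chosen with earlier results of these data known, so the counts below are description and not separate support. Of all genes tested, 0.616% passed there as higher and 0.311% as lower. Ischemic and normal mice did not overlap for 0.576% of all genes as higher and 0.271% as lower. Of 18 leukocyte chemokine receptors, 11 were tested, 2 fell and none rose, with a median log2 difference of −2.13 beside −0.05 over all genes. Cxcr4, the receptor of Cxcl12, went from 1.70 to 5.09 CPM in the normal mice to 0.0891 to 0.829 CPM in the ischemic mice, without overlap (log2 −2.75, SE 0.40, FDR 0.00836). Ccr2, the receptor of Ccl2, fell by 2.98 on the log2 scale (SE 0.63, FDR 0.0444). That call was lost without any 1 of 11 mice (FDR up to 0.138) and held without normal WT mouse 1, normal KO mouse 1 or ischemic WT mouse 2, and without normal KO mouse 4 together with ischemic WT mouse 2 neither receptor passed (FDR 0.0512 for Cxcr4 and 0.0569 for Ccr2). Cxcr2, the receptor of Cxcl1 and Cxcl2, was at most at 0.544 CPM in any mouse, and Cxcr1 had 3 counts in all. T cell markers summed to 0.533 to 16.3 CPM in normal and 0.178 to 1.49 CPM in ischemic mice. Of the 4 tested, 1 passed, Cd3g (log2 −4.78, FDR 0.0322), which met the filter only through the normal mice. It had 142 of its 303 counts in normal KO mouse 4, and its value without that mouse is not given. The part of these markers in the receptor values was not tested.

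Among 5 atypical receptors, which bind chemokines without G protein signals, Ccrl2 rose (log2 1.41, SE 0.23, FDR 0.0140) and the other 4 did not pass. It went from 7.27 to 14.2 CPM in normal to 20.3 to 49.4 CPM in ischemic mice, without overlap. Of 14 inducers of chemokine transcription 5 were tested and 1 passed as higher, Csf3, the growth factor of neutrophils. It had 0 counts in 6 of the 7 normal mice and 0.274 to 31.5 CPM after ischemia (FDR 0.0147, and 0.0562 without normal KO mouse 3). Csf3 thus entered the test only through the ischemic mice. Tnf and Il17a had no count in any mouse.

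Of 16 NF-kB and AP-1 response genes, all tested, 8 rose and none fell (median log2 1.18). Nfkbia, the feedback inhibitor of NF-kB, had the smallest p of all genes and went from 68.4 to 135 CPM in normal to 279 to 467 CPM in ischemic mice (log2 1.78, SE 0.14, FDR 0.000172). The others were Tnfaip3 (3.26, FDR 0.00636), Nfkbiz (1.77, FDR 0.00525), Socs3 (3.09, FDR 0.0231), Junb (1.81, FDR 0.0221), Relb (1.29, FDR 0.0391), Zfp36 (1.18, FDR 0.0299) and Atf3 (1.17, FDR 0.0327). Without normal KO mouse 4 and ischemic WT mouse 2 together, 4 of the 8 still passed, and Relb, Zfp36, Junb and Atf3 did not (FDR 0.0908, 0.125, 0.0908 and 0.127). With any single mouse left out, Nfkbia, Nfkbiz and Tnfaip3 passed throughout, whereas Relb was lost in 11, Zfp36 and Atf3 in 10, Socs3 in 3 and Junb in 2 of 14 omissions, at FDR up to 0.0913.

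Of 10 endothelial partners of leukocyte capture, 9 were tested and 4 rose. Sele and Selp, the selectins on which leukocytes roll, rose by 5.94 (SE 0.71, FDR 0.00371) and 3.76 (SE 0.63, FDR 0.0164) on the log2 scale. Icam1 and Vcam1, the integrin ligands on which they stop, rose by 4.20 (SE 0.40, FDR 0.000613) and 2.72 (SE 0.47, FDR 0.0181). All 4 passed with every single mouse left out. Of 13 genes for the glycosaminoglycans that hold chemokines, Sdc4 alone passed (log2 1.20, SE 0.15, FDR 0.00452). Of 8 enzymes that cut or shed chemokines 7 were tested and none passed, and the smallest p belonged to Dpp4 (−0.99, FDR 0.167) and Mmp14 (0.73, FDR 0.198). In no list did a gene pass between Drp1 KO and WT mice.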

How the data were processed

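RNA-seq was made from the SMA of 14 mice in 4 groups. The authors deposited whole-number read counts for each gene symbol and mouse, without normalization or pooling. HISAT2 2.0.4 and mm10 are listed in the submitters' processing notes, and the counting program, annotation and use of strand are not given in the sources used here, so overlapping genes and near-identical copies may share reads. Columns were matched to mice by library name, and 0 sample columns were left unused. The 18 pairs of mice within groups differed beyond sampling noise (chi-square per degree of freedom at least 59.1).

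Genes were kept by filterByExpr with the 4 groups, scaled by TMM and tested with edgeR 4.0.16 (quasi-likelihood, R 4.3.3) in 1 fit of 4 group means. P-values were adjusted by Benjamini-Hochberg over 17693 genes, and genes passed at FDR under 0.05 and a fold over 1.5. The biological coefficient of variation was 0.522. CPM is the count divided by the TMM-scaled total. Exon lengths and positions came from GENCODE M21, which matched 40 of 43 symbols. The steps were tested on simulated data.

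Members, lists and tests were chosen with earlier results of these data known. Of the 26 tested ligand genes, those that passed anywhere and then those of smallest p for ischemia, 20 in all, were described most fully, the others by range, and list genes were named where they passed, or else the 2 with the smallest p. Alternatives were DESeq2 1.42.0, other scalings, filters, fold limits and groups, the replicate number as a block, and each mouse left out.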

Additional observations from a re-analysis of the deposited data

Results flagged for a closer look

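A mouse was looked at again where, among the 4 mice of a group, its gap to the nearest other mouse was more than 0.829 of the range of the group (Dixon's test). Of 52 groups of 4 mice, 11 gave such a value, all on the high side. The limit is set to flag about 1 in 20 groups of normally distributed values. CPM values near 0 are skewed, and where 3 mice are at 0 any count in the other mouse is flagged. The number of flags is therefore not read as an excess over chance. The genes of 1 mouse are not independent, and 7 of the 11 values came from normal KO mouse 4: Cxcl9 at 229 CPM (nearest other 12), Cxcl10 at 32.7 CPM (0.497), Ccl8 at 21.1 CPM (1.96), Ccl5 at 12.5 CPM (1.81), Cxcl2 at 1.5 CPM (0.196), Ccl17 at 0.491 CPM and Ccl4 at 0.153 CPM, with the last pair at 0 in the other 3 mice. Ccl3 was at 1.13 CPM in normal KO mouse 1 (nearest other 0.0613). After ischemia, Cxcl10 at 31.0 CPM (8.33) and Cxcl16 at 1.78 CPM (0.425) stood out in KO mouse 3, and Ccl24 at 3.83 CPM (1.96) in KO mouse 4. WT groups of 3 mice were not examined in this way, so the high values of ischemic WT mouse 2 carry no such comparison.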

How the results depend on the processing

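Cxcl1 and Cxcl2 passed in the ischemia comparison averaged over genotypes with each single mouse left out (2 to 2 ligand genes, FDR at most 0.0317 and 0.0210), with both other scalings, with no filter beyond 1 count, with the replicate block and with DESeq2, which added Cx3cl1. Over all genes, DESeq2 called 870 in that comparison, beside 164 in the main fit. Requiring at least 10 counts in every mouse left 0 ligand genes called, since Cxcl1 and Cxcl2 do not meet that filter. In WT mice the count of ligand genes passing was 2 with DESeq2 and 0 to 1 with single mice left out, the 1 being Cxcl2 (FDR 0.0209) without normal KO mouse 4. In KO mice it was 2 with DESeq2, with no filter beyond 1 count, with only the groups compared and with the replicate number as a block, and 0 to 2 with single mice left out, above 0 when the mouse was normal WT 1, 2 or 3 or normal KO 4. Over all genes in KO mice, DESeq2 called 606, no filter beyond 1 count 73, only the groups compared 267 and the block 48. The main fit called 52. Leaving out normal KO mouse 4 and ischemic WT mouse 2 together, an alternative chosen after seeing the data, also gave 2 ligand genes in KO mice. DESeq2 gave no adjusted p for Ccl8, Cxcl9 and Cxcl10. Differences for ischemia turned sign for Cxcl14 without normal WT mouse 2 (range −1.51 to 0.022), Cxcl13 without ischemic WT mouse 1 (−2.29 to 1.02), and Ccl2 (−0.26 to 1.46) and Ccl7 (−0.57 to 1.32) without ischemic WT mouse 2. None of these 4 passed in any setting, and the cause was not tested. The counts of ligand genes for genotype and interaction stayed 0 in every setting. Over all genes they did not: DESeq2 called 41 genes between KO and WT under normal conditions, 18 after ischemia, 88 averaged over conditions and 11 in the interaction, and without normal WT mouse 2 edgeR called 29 under normal conditions and 102 averaged over conditions. The replicate block called 1 gene averaged over conditions.

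Same-numbered mice correlated between −0.146 and 0.316, over 0.1 in 11 of 19 pairs. Of 14 mice, 8 correlated best with their own number. Whether the numbers pair the mice cannot be told from this, and the main fit used no block. Adding the replicate block moved the ischemia difference of Cxcl10 from 1.75 to 3.77 on the log2 scale. Its difference between KO and WT under normal conditions went from 1.94 to −1.905. Neither passed (FDR 0.128 and 0.98 with the block, edgeR). With the replicate block, the tested ligand genes above 0 in normal KO mice numbered 19 (median 0.71, beside 0.0055 over all genes). Relb and Socs3 no longer passed for ischemia with the block (FDR 0.0637 and 0.0510, edgeR). Groups of 3 or 4 mice and levels near the floor limit the precision of most ligand genes.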
